A study of Saccharomyces cerevisiae with 4 samples.

Results

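The aryl-alcohol dehydrogenase family of Saccharomyces cerevisiae was followed across 4 Affymetrix yeast arrays through 5 of its genes, AAD3, AAD4, AAD6, AAD10 and AAD14. Every probe set that the platform annotation gives to one of these symbols was taken, whatever its values. This gave 8 probe sets, among 5498 probe sets for the 5449 S. cerevisiae genes measured. AAD3 (YCR107W) had 3 probe sets, AAD4 (YDL243C) had 2, and AAD6 (YFL056C), AAD10 (YJR155W) and AAD14 (YNL331C) had 1 each. Of the 8, 5 carried the plain _at ending. Another 2 ended in _s_at, the Affymetrix mark for probes shared by several transcripts, and 1 ended in _x_at, the mark for probes that may also bind other transcripts. RNA came from a haploid MATa, RAD5+ strain, W1588-4c, that carries the alleles ade2-1 and can1-100, as well as his3-11,15 and leu2-3, 112 together with trp1-1 and ura3-1. All cultures, controls included, had this 1 genotype. Growth was at 30 °C in synthetic complete liquid with 2% glucose, up to an optical density near 1. Of the 4 arrays, 2 came from cultures then left untreated and 2 from cultures given 0.4 mM allyl alcohol for 3 h, each a separate experiment by the labels. The labels give no holding time for the untreated cultures, and if it differed, time and treatment cannot be told apart. The arrays are called untreated 1 and 2 and allyl alcohol 1 and 2 after their labelled group and replicate number.

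Aryl-alcohol dehydrogenases are members of the aldo-keto reductase superfamily, enzymes that use NADPH to reduce aldehydes to alcohols. The yeast genes were named for their likeness to an enzyme of the wood-rotting fungus Phanerochaete chrysosporium that interconverts aryl aldehydes and aryl alcohols. In S. cerevisiae the genes lie near chromosome ends, are near-identical copies of each other in large part, and transcripts of AAD4 and AAD6 are known to be induced by thiol-oxidising and thiol-binding agents through the transcription factor Yap1. Yeast alcohol dehydrogenases oxidise allyl alcohol to the thiol-binding aldehyde acrolein. In the RefSeq gene table AAD6 is classed as a pseudogene, and YFL057C, an open reading frame once counted separately as AAD16, is a synonym of it. A further relative, AAD15, had no probe set under its symbol, and none carried the symbol AAD16.

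The arrays did not group by label. Across the 5498 probe sets, which are not independent replicates, Pearson's r was 0.757 between the untreated arrays and 0.742 between the allyl alcohol arrays. The pair of untreated 1 with allyl alcohol 2 had 0.996, and that of untreated 2 with allyl alcohol 1 had 0.991. Arrays are therefore named by their labels throughout, every direction is that of the labels, and values of the family are given with and without each array. Whether arrays carry exchanged labels was not tested. If they did, the differences between labels and those inside a label would not be what their names say, and the count of calls by label would not hold. Background was set on each array at the 95th percentile of probe sets with gene names outside the S. cerevisiae table and lay between log2 signals of 5.28 and 5.64. All 32 values of the family were above it. Of all tested probe sets, 97.9% and 99.4% were above it on untreated 1 and 2, and 99.2% and 97.3% on allyl alcohol 1 and 2. The count for the family is near these shares and is no trait of the family.

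The 6 a-specific genes of the mating type check were above background on all 4 arrays. The 4 alpha-specific genes were above background on all 4 arrays too, as were at least 97.3% of all tested probe sets on each array. Being above background therefore does not tell the mating types apart. The summed signal of the alpha-specific genes, as a log2 value, was 11.1 and 12.5 on untreated 1 and 2, against 12.6 and 11.04 on allyl alcohol 1 and 2. Among these 4 genes SAG1 had the largest log2 differences, 2.26 for untreated 2 minus 1 and 2.48 for allyl alcohol 1 minus 2. MF(ALPHA)1 had 0.79 and 0.82, and MF(ALPHA)2 had 0.57 and 0.82. STE3 went the other way, with -0.42 and -0.45. The summed signal of the a-specific genes, as a log2 value, was 15.4 and 13.5 on untreated 1 and 2. On allyl alcohol 1 and 2 it was 13.7 and 15.35. The Bacillus poly-A controls, RNA added at labelling, had a median log2 difference of 0.92 for untreated 2 minus 1 and 1.14 for allyl alcohol 1 minus 2. The summed and control values differ between the same arrays as those of the family below, and their part in them was not tested. In RNA from whole cultures, fewer cells of a type and less RNA per cell cannot be told apart.

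AAD6 had the largest difference between the untreated arrays among the 8 probe sets. Its log2 signal was 8.48 on untreated 1 and 14.38 on untreated 2. It was 14.39 on allyl alcohol 1 and 8.47 on allyl alcohol 2. One array of each label was thus high and one low, and the labels overlapped. The array order from low to high was allyl alcohol 2, untreated 1, untreated 2 and allyl alcohol 1, and neighbours within the lower or the higher pair differed by 0.0065 in both cases. The high values lay close to the top of the scale, since the highest signal of any tested probe set was between 14.6 and 14.7 on the 4 arrays.

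AAD4 was read by probe sets that did not give the same size of difference. The plain set 1774511_at had log2 signals of 7.16 and 12.88 on untreated 1 and 2, and 12.72 and 6.73 on allyl alcohol 1 and 2. The shared set 1771716_s_at had 11.20 and 14.09, and 14.08 and 11.22, on the same arrays in that order. Both sets were high on untreated 2 and allyl alcohol 1. The difference between untreated arrays was larger in the plain set by 2.83 on the log2 scale, and the difference between allyl alcohol arrays was larger by 3.13. Since an _s_at set counts signal of several transcripts, its values cannot be given to AAD4 alone.

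AAD14 took an intermediate place. Its log2 signal was 8.54 and 10.93 on untreated 1 and 2, and 10.79 and 8.35 on allyl alcohol 1 and 2. The same arrays were high and low as for AAD6 and AAD4, and the labels overlapped.

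AAD3, the family member nearest to a chromosome end in gene order, had 3 probe sets with smaller differences. The plain set 1779484_at had log2 signals of 6.68 and 8.52 on untreated 1 and 2, and 8.01 and 6.17 on allyl alcohol 1 and 2. The set 1779803_x_at had 7.80 and 9.33, and 8.98 and 7.55, in the same order. The set 1777457_s_at had 9.89 and 10.90, and 10.78 and 9.62. Since _x_at and _s_at sets may count signal of other transcripts, their values cannot be given to AAD3 alone. All 3 sets had the same order of arrays, from allyl alcohol 2 through untreated 1 and allyl alcohol 1 to untreated 2, and their labels overlapped.

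AAD10 was the member whose arrays lay closest together. Its log2 signal was 11.28 and 11.45 on untreated 1 and 2, and 11.20 and 10.89 on allyl alcohol 1 and 2. Both allyl alcohol arrays were below both untreated arrays, and AAD10 was the 1 probe set of the 8 whose labels did not overlap. Among all probe sets tested, 183, or 3.33%, had non-overlapping labels with allyl alcohol lower, and 103, or 1.87%, with allyl alcohol higher.

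**Figure D1:**
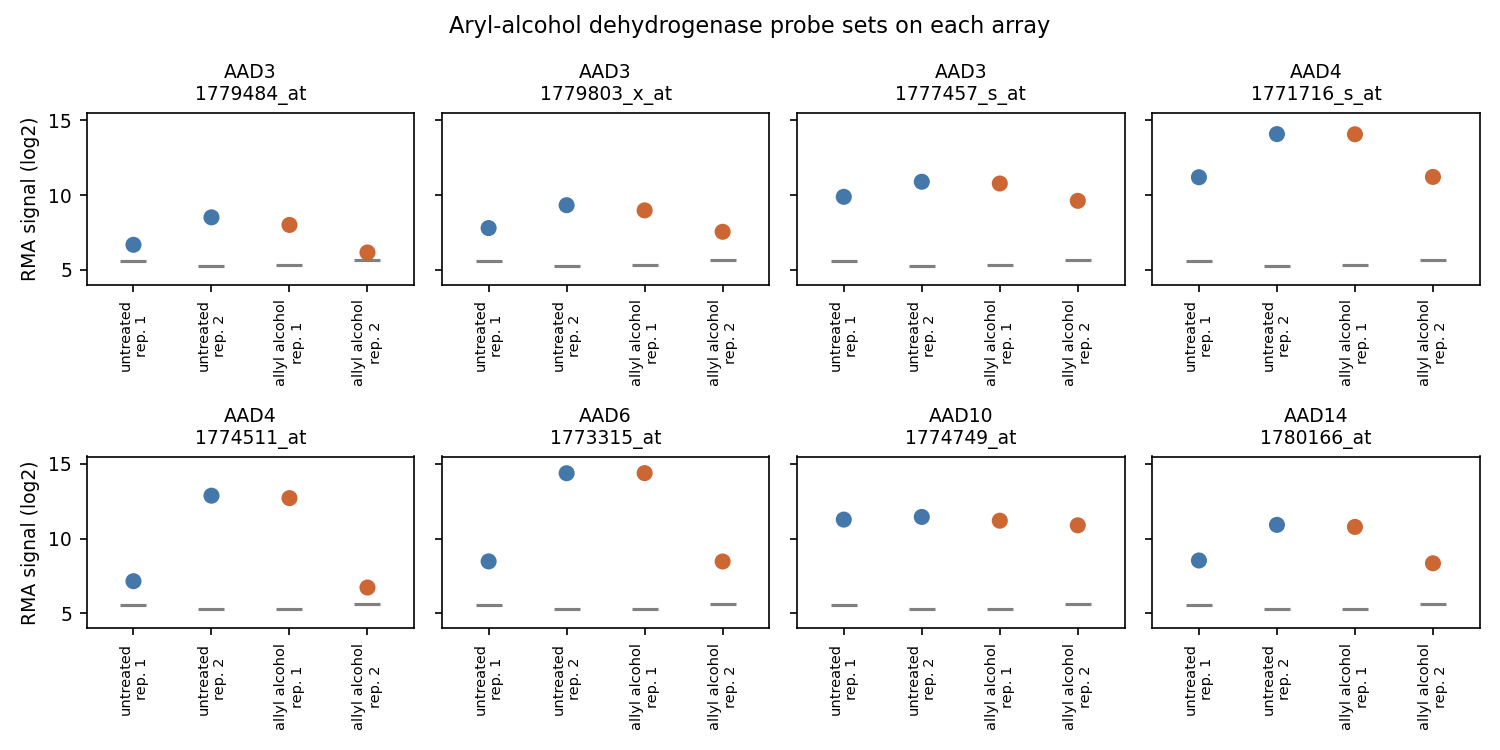
Log2 RMA signal (vertical axis) of the 8 probe sets on each of the 4 arrays (horizontal axis), with untreated arrays in blue and allyl alcohol arrays in orange. Each point is 1 array and each grey bar is that array's background. In 7 panels untreated 2 and allyl alcohol 1 stand above the other arrays, and in the AAD10 panel all 4 points lie between 10.89 and 11.45.

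Allyl alcohol was compared with untreated by label in limma across all 5498 probe sets, with Benjamini-Hochberg adjustment over all of them. This asks whether the family's transcripts differ after exposure to the alcohol. None of the 8 probe sets passed an adjusted p of 0.05, and none of the 5498 did either (0%), where limma also gave 0 probe sets with an unadjusted p under 0.05. For the family, adjusted p in limma was 1 for each probe set and unadjusted p lay between 0.407 and 1. The median log2 difference was -0.24 over the 8 probe sets and -0.02 over all probe sets tested. With 1 probe set for each gene the median of the family was -0.16. The difference was negative in 6 sets, 0.005 in the shared AAD4 set and 0.00 in AAD6.

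The mean log2 signal of AAD6 was 11.43 ± 4.17 (SD, n = 2) over the untreated arrays and 11.43 ± 4.18 (SD, n = 2) over the allyl alcohol arrays. The standard error of its difference was 3.09 and the 95% interval ran from -8.88 to 8.88. The equal means joined a high and a low array in each label, so they do not show that the transcript was level. Without untreated 1 the difference was -2.95, and without untreated 2 it was 2.95. Without allyl alcohol 1 it was -2.96, and without allyl alcohol 2 it was 2.96.

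The mean of AAD10 was 11.37 ± 0.13 (SD, n = 2) over the untreated arrays and 11.05 ± 0.22 (SD, n = 2) over the allyl alcohol arrays. Its difference of -0.32 had a standard error of 0.34 and a 95% interval from -1.29 to 0.66, the narrowest of the family. It stayed negative, between -0.47 and -0.16, with any 1 array left out. This sign follows from its labels not overlapping and is no further support. The 6 other sets of AAD3, AAD4 and AAD14 changed sign with an array left out.

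For AAD14 the difference was -0.16 (standard error 1.29, 95% interval -3.88 to 3.55), and for the plain AAD4 set it was -0.29 (standard error 3.07, 95% interval -9.098 to 8.51). The 3 AAD3 sets had -0.51, -0.30 and -0.19, with standard errors of 1.01, 0.83 and 0.65 for the plain, _x_at and _s_at sets. These intervals are wide enough to hold a several-fold change in either direction for each of these sets.

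Set against the array of the same number, the family had opposite signs in the replicates. For replicate 1 the log2 difference, allyl alcohol minus untreated, was positive in 7 of 8 probe sets, with a median of 1.79 against -0.01 over all probe sets tested. For replicate 2 it was positive in 0 of 8, with a median of -2.46 against -0.04. How many of all probe sets had these signs was not counted, and sets of the family may share sequence. AAD6 had 5.91 for replicate 1 and -5.91 for replicate 2. AAD10 had -0.07 and -0.56.

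**Figure D2:**
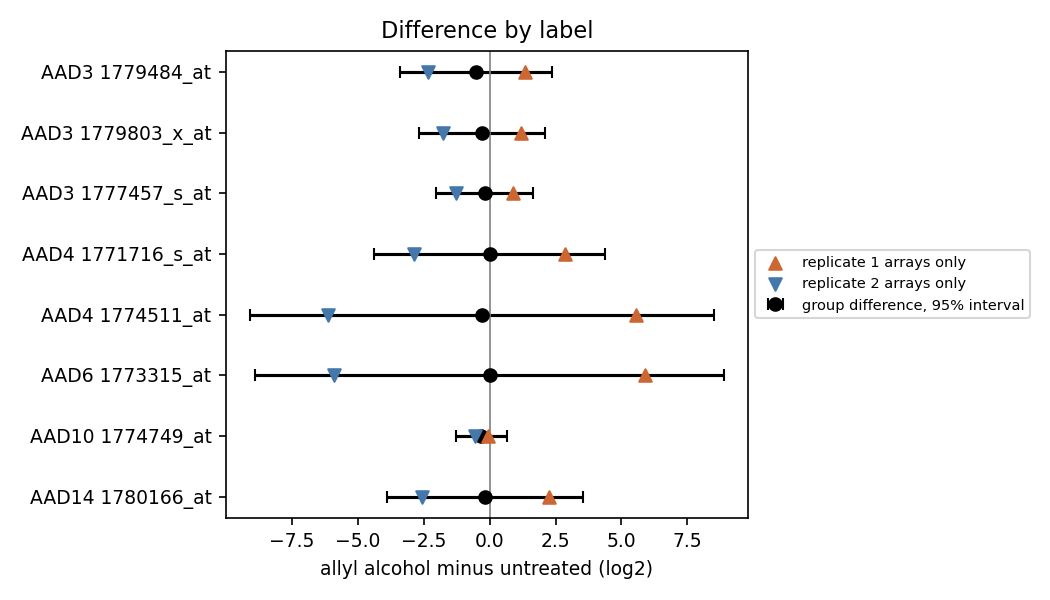
Log2 difference, allyl alcohol minus untreated (horizontal axis), for the 8 probe sets (vertical axis). Black points with bars are the group difference and its 95% interval in limma, and triangles are the difference between the single arrays of replicate 1 (orange) and of replicate 2 (blue). Every interval includes 0, and the triangles stand on opposite sides of 0 for all sets except AAD10.

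The differences between arrays of one label carry no test, since each compares single arrays. They are given as untreated 2 minus 1 and as allyl alcohol 1 minus 2, an order chosen after the values were seen. At least 2-fold higher on untreated 2 than on untreated 1 were 7 of the 8 probe sets, where 20.6% of all probe sets tested were. At least 2-fold higher on allyl alcohol 1 than on allyl alcohol 2 were 7 of the 8, where 21.6% of all were. The same 7 sets, from 4 of the 5 genes, passed in both labels, as did 18.7% of all probe sets. At least 2-fold lower in both stood 0 of the 8, as 16.1% of all did. AAD3 and AAD4 each gave more than 1 of the 7 sets, and sets may share sequence. The 7 are therefore not separate observations. Over the 8 sets the median was 2.11 between the untreated arrays and 2.14 between the allyl alcohol arrays, on the log2 scale, against 0.03 and -0.003 over all probe sets tested.

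AAD6 was 59.8-fold higher on untreated 2 than on replicate 1, and 60.3-fold higher on allyl alcohol 1 than on replicate 2. From high to low these differences ranked 6 and 11 among the 5498 probe sets. The plain AAD4 set was 52.8-fold and 63.3-fold higher, and ranked 7 and 8. AAD6 and this set were among the 41 probe sets, or 0.746% of those tested, that were at least 16-fold higher in both labels, a fold chosen after the values were seen.

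The shared AAD4 set was 7.40-fold and 7.23-fold higher and ranked 136 and 171. AAD14 was 5.22-fold and 5.40-fold higher and ranked 244 and 280. The AAD3 sets ranged from 2.01-fold to 3.57-fold inside untreated and from 2.23-fold to 3.59-fold inside allyl alcohol. The smallest of these was that of 1777457_s_at, just past the 2-fold limit with a log2 difference of 1.01 inside untreated. Just short of the limit there was no member, since AAD10 followed with 1.13-fold and 1.24-fold, at ranks 2457 and 2170.

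Arrays that stood together differed little in the family. In the 7 sets other than AAD10, untreated 1 and allyl alcohol 2 were the lower pair. The gap between the lower and the higher pair ran from 0.89 in the shared AAD3 set to 5.90 in AAD6 on the log2 scale. The gap inside a pair was at most 0.51. Of the 8 sets, 7 were highest on untreated 2 and 7 were lowest on allyl alcohol 2. Of the 16 differences between an allyl alcohol array and the untreated array of the other number, 14 were negative. These differences ran from -0.51 to 0.02. The shares of all probe sets with the same orders or signs were not counted, and sets of the family may share sequence. No lowering particular to the family can be read from these counts.

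**Figure D3:**
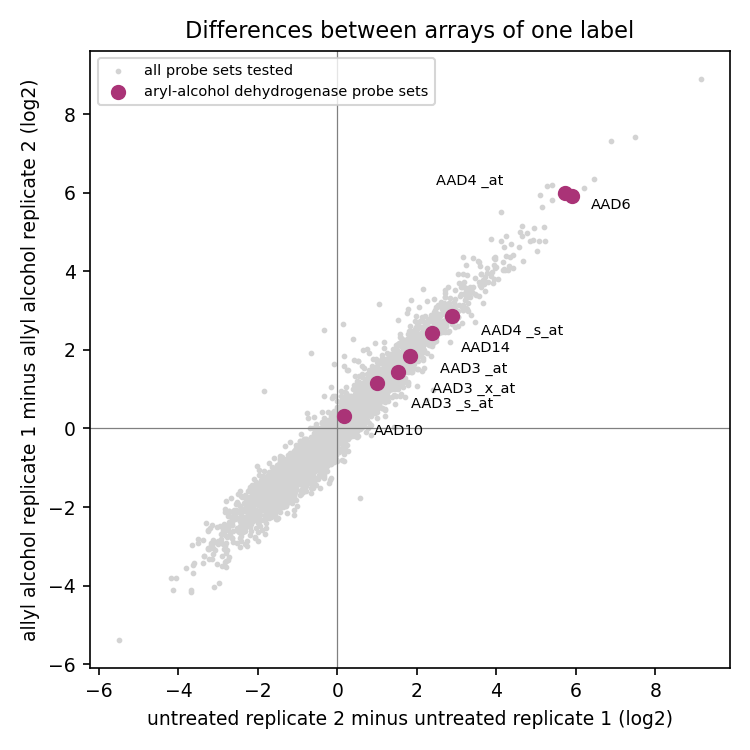
Log2 difference between the untreated arrays (replicate 2 minus 1, horizontal axis) against that between the allyl alcohol arrays (replicate 1 minus 2, vertical axis). Grey points are all 5498 probe sets tested and purple points the 8 family probe sets, which lie along the diagonal from AAD10 at 0.18 and 0.31 to AAD6 at 5.90 and 5.91.

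The family shares a position near chromosome ends. In the RefSeq gene order AAD3 was gene 2 from its chromosome end, AAD4 and AAD10 were both gene 6, AAD14 was gene 7 and AAD6 was gene 11. The next gene beside 4 of the 5, namely AAD4, AAD6, AAD10 and AAD14, was a member of the THI5 family (THI13, THI5, THI11 and THI12), near-identical genes for synthesis of the pyrimidine part of thiamine. Beyond it lay the sugar genes HXT15 and SOR2 for AAD4 and HXT16 and SOR1 for AAD10. For AAD6 and AAD14 these places held the vitamin B6 genes SNZ3 and SNO3 and SNZ2 and SNO2.

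The 3 genes on each side of the members gave 28 neighbours, of which 19 had a named probe set. None passed the test by label, with 0 called in limma and a smallest unadjusted p of 0.479. Their median log2 difference, allyl alcohol minus untreated, was -0.09. Of the 19, 9 stood at least 2-fold higher both on untreated 2 and on allyl alcohol 1, where 18.6% of all genes measured did, and 2 stood at least 2-fold lower on both, where 15.8% of all did. One of the 9, the hexose transporter gene HXT15, was above background on 2 arrays only, and with the values below background raised to it 8 remained.

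High and low neighbours were mixed beside the same member. AGP3, an amino acid transporter gene beside AAD6, had log2 signals of 6.82 and 10.94 on untreated 1 and 2, and 11.15 and 6.39 on allyl alcohol 1 and 2. SNZ3 and SNO3 on the other side of AAD6 were lower on untreated 2, with log2 differences of -0.47 and -0.99. SNZ3 was read by a shared _s_at set, so its value cannot be given to that gene alone. THI13, next to AAD4, had 10.73 and 10.72 on untreated 1 and 2, and 10.73 and 10.50 on allyl alcohol 1 and 2. Its probes may also read the other THI5 family genes.

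AAD3 was the member whose measured neighbours all stood on the same side. PAU3, a seripauperin gene, ADH7, a gene for an NADPH-dependent alcohol dehydrogenase, RDS1, a zinc cluster regulator gene, and YCR108C had log2 differences of 2.82, 2.08, 1.18 and 2.89 inside untreated. Inside allyl alcohol they had 3.10, 1.94, 1.20 and 2.65. PAU3 was read by a shared _s_at set. Beside AAD14 the histone deacetylase gene RPD3 and the peroxisome gene PEX6 had 0.20 and -0.17 inside untreated, and 0.04 and -0.74 inside allyl alcohol.

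The last 10 genes at each chromosome end, members left out, comprised 316 genes, of which 220 were measured. Of the measured ones 84, or 38.2%, stood at least 2-fold higher on the arrays named above in both labels, against 18.6% of all genes measured. As far below stood 25, or 11.4%, against 15.8% of all. With values below background raised to it, 80 were higher. In limma 0 of the 220 passed the test by label.

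**Figure D4:**
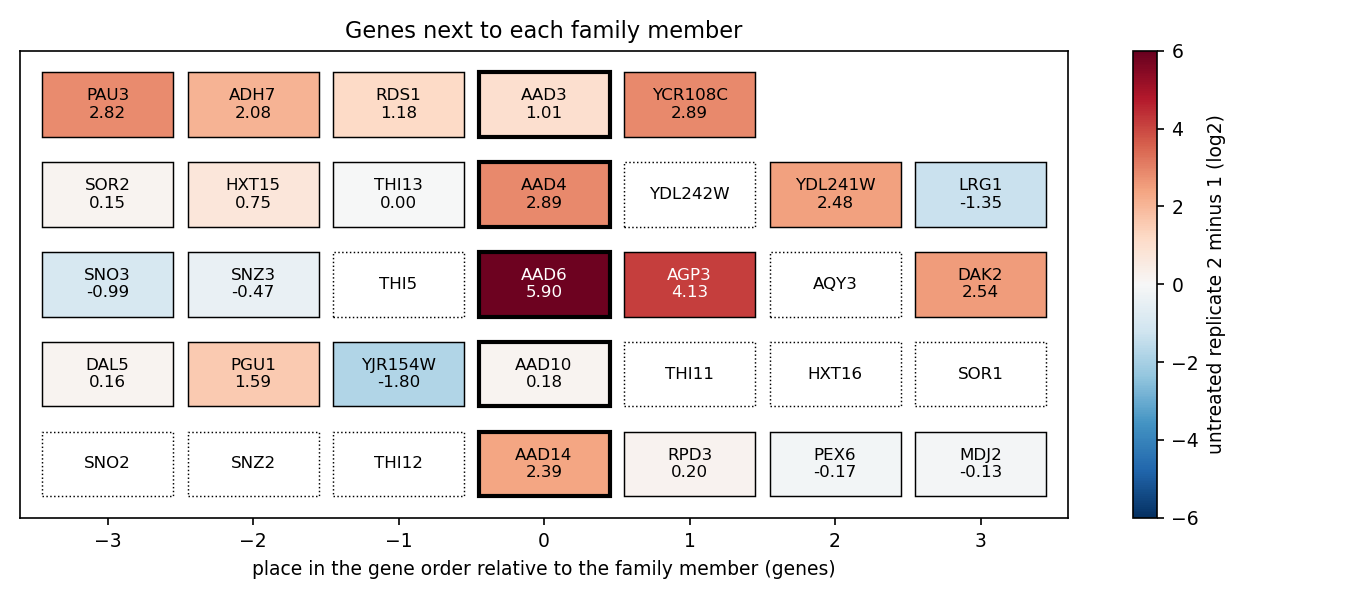
Gene order (horizontal axis, in genes) around each family member (1 row each, thick outline). Colour and number give the log2 difference of untreated 2 minus 1 with values below background raised to it, and white boxes with dotted outline are genes with no probe set of that name. AAD6 at 5.90 stands beside AGP3 at 4.13, while SNO3 and SNZ3 in the same row are at -0.99 and -0.47. SNZ3 was read by a shared _s_at set.

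Other genes of related chemistry were taken from lists. YPL088W, a putative aryl-alcohol dehydrogenase gene outside the AAD symbols, did not follow the family. Its log2 signal was 11.89 and 10.99 on untreated 1 and 2, and 11.12 and 11.91 on allyl alcohol 1 and 2, so it was low where AAD6 was high. Of 6 other aldo-keto reductase genes (GCY1, YPR1, GRE3, ARA1, YDL124W and YJR096W), 0 passed the test by label. At least 2-fold apart in both labels were 0 of the 6, where 18.6% of all genes measured stood higher and 15.8% lower. Their log2 differences inside untreated ran from -0.64 in ARA1, an arabinose dehydrogenase gene, to 0.81 in YPR1, a gene for an NADPH-dependent aldo-keto reductase. Inside allyl alcohol they ran from -0.58 in ARA1 to 0.998 in YJR096W, just short of the 2-fold limit.

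The 18 genes of the Ehrlich pathway, which turns amino acids into fusel alcohols, and of the alcohol dehydrogenases went both ways. None passed the test by label. In the same order of subtraction, 8 (44.4%) stood at least 2-fold higher in both labels, against 18.6% of all genes measured, and 3 (16.7%) stood as far below, a share near the 15.8% of all genes. The 3 with the largest differences were ADH4, ADH5, both alcohol dehydrogenase genes, and BAT1, the mitochondrial branched-chain aminotransferase gene. ADH4 had log2 differences of -2.85 between the untreated and -2.61 between the allyl alcohol arrays. ADH5 had -2.54 and -2.08, and BAT1 had -2.22 in both. These 3 were the ones that stood lower. The 8 that stood higher included ADH7, described above with 2.08 and 1.94.

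Of 18 genes listed as YAP1 and its targets, 0 passed the test by label. In both labels 12 of them stood at least 2-fold higher, where 18.6% of all genes measured did, and 0 stood as far below, where 15.8% of all did. They had median log2 differences of 1.48 between the untreated and 1.71 between the allyl alcohol arrays. SRX1, the sulfiredoxin gene, had log2 differences of 6.46 and 6.35, above those of AAD6. OYE3, an old yellow enzyme gene, had 5.20 and 5.11, and FRM2, a nitroreductase-like gene, had 5.23 and 4.78. The list was chosen with these arrays' results known, and it is no independent evidence of a direction.

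The genes whose 4 array values were most like those of each member, after centring each gene on its mean, were found by Euclidean distance on the log2 scale. For AAD6 they were YOR161C-C, YLR460C and YBR284W, at distances of 0.24, 0.34 and 0.38. For the shared AAD4 set RPN4, the proteasome regulator gene, lay at 0.02, followed by LDS2 and FIT2, both at 0.07. AAD14 was nearest to YHR054C, YKL107W and TAD2, at 0.05, 0.07 and 0.09. The shared AAD3 set 1777457_s_at was nearest to ATG23, SLO1 and HUL4, at 0.04, 0.04 and 0.05. The other AAD3 sets and the plain AAD4 set were not compared in this way. AAD10 was nearest to CSN9, ZIP2 and PHM7, at 0.09, 0.12 and 0.12. With 4 arrays in which 2 pairs stand apart, such distances mainly compare the size of that gap.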

How the data were processed

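Biotin-labelled cRNA from 6 µg of total RNA was hybridised to Affymetrix yeast arrays, per the labels' protocols. The deposited values are RMA signals on the log2 scale, 1 for each of 10928 probe sets and array; the submitters' processing notes name Affymetrix Expression Console and the RMA method, without version or settings. The log2 scale was read from the values (2.78 to 14.7). RMA equalises the distributions of arrays, so a broad change in mRNA is partly removed. The number of arrays limits the precision.

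Probe sets were named through the platform annotation and the RefSeq gene table of assembly R64. All 5498 probe sets with 1 S. cerevisiae gene were fitted with limma 3.58.1 in R 4.3.3 (lmFit and eBayes, two-sided, no block, Benjamini-Hochberg, threshold 0.05). P-values in limma set the difference between labels against the spread of these arrays inside a label. That spread holds the gap between the 2 arrays of one label. An exact permutation test of 2 against 2 arrays cannot go below p = 0.333. Where lists hold genes with several probe sets, the set of highest mean stood for the gene. All member probe sets were named, with up to 3 genes of each list by largest difference between arrays of one label, all aldo-keto reductases as a range, and the 3 genes nearest to each member; single neighbours were also described after their values were seen. The members, lists and rules were chosen with earlier results of these data known. The fit was tested on simulated data with independent noise on each array. Those data lack the array pairs across labels seen here, so they do not show how such pairs affect the calls. Across probe sets the deviations from the group means correlated at -0.973 between arrays of one number, so such arrays did not deviate alike. With 2 arrays in a group these deviations mirror each other, so either number gives the same value. Whether the numbers mark paired experiments was not tested.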

Additional observations from a re-analysis of the deposited data

How the results depend on the processing

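limma called 0 of the tested probe sets under every setting run; 0 had an unadjusted p under 0.05, except 189 with the crossed replicate block (smallest adjusted p 0.938) and 8 when all probe sets except controls were tested. The median difference by label over the 8 family probe sets, -0.24, lay between -1.40 and 0.75 with 1 array left out. By probe set those ranges were -1.43 to 0.41, -1.06 to 0.47 and -0.77 to 0.39 for the plain, _x_at and _s_at sets of AAD3, -1.44 to 1.45 and -3.28 to 2.70 for the _s_at and plain sets of AAD4, -2.96 to 2.96 for AAD6, -0.47 to -0.16 for AAD10 and -1.38 to 1.05 for AAD14; a label left with 1 array is assumed to vary like the other. With the replicate number as a block the median was -0.24 and 0 probe sets were called. The block that pairs the arrays crosswise, chosen after seeing the data, gave -0.24 and 0 calls, where 3 of the 8 sets had an unadjusted p under 0.05 in limma: 0.00512 and 0.0371 for the plain and _x_at sets of AAD3 and 0.0329 for AAD10 (adjusted p = 0.938 for each; 1 in all other settings). Under settings that left out no array, 0 of 53 values of the 7 sets other than AAD6 changed sign. Most of these values were fixed in advance. In this balanced design, blocks, the intensity trend and the choice of probe sets cannot move the difference of a probe set. Only quantile normalization anew and median centring could. AAD6, at 0 to 2 decimals, lay between -1e-06 and 0.01.

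Inside untreated the family's median of 2.11 became 1.87 with values quantile normalized anew, 2.04 with arrays centred on their medians and 2.39 over plain sets only (chosen after seeing the data). Inside allyl alcohol 2.14 became 1.78, 2.10 and 2.43. Under either rescaling 6 rather than 7 sets were at least 2-fold higher in both labels, against 17.1% and 17.9% of all probe sets, as the shared AAD3 set had 0.96 and 0.94 inside untreated. At the 99th percentile as background 31 of 32 values were above it, and the share of all probe sets was not counted.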
